A study of Mus musculus with 9 samples.

Results

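The mouse Camta genes, Camta1 and Camta2, were followed through 9 RNA-seq libraries of adult hippocampus in which Camta1 was the target of a knock-down. They were taken as the rows whose gene symbol was Camta1 or Camta2, which gave 2 of 31804 genes in the count table. Camta1 is ENSMUSG00000014592, on the minus strand of chromosome 4, and Camta2 is ENSMUSG00000040712, on the minus strand of chromosome 11. The groups were shRNA A and shRNA B, separate short hairpin RNAs directed at Camta1, and a non-targeting shRNA as control, with 3 animals in each by the series design. All 9 animals were male C57BL/6NCrl mice, an inbred strain. Each received its hairpin at 8 weeks of age from a recombinant adeno-associated virus, injected into dorsal hippocampus, and tissue was collected 3 weeks after that. The controls therefore also carried virus, a hairpin and the red fluorescent protein mCherry, by which the infected area was found and cut out. Dissected tissue of this kind can also hold cells without virus, and neither the share of infected cells nor the promoter behind the hairpins is given in the sources used here. In such bulk tissue, fewer cells of a type and less RNA per cell cannot be told apart.

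CAMTA proteins are calmodulin-binding transcription activators, found in plants as well as animals. Calmodulin is the calcium sensor that passes rises in cellular calcium on to kinases, phosphatases and transcription regulators. A CAMTA protein carries a DNA-binding CG-1 domain near its start, followed by a TIG domain, ankyrin repeats and IQ motifs, at which calmodulin binds. Mammals have a pair of genes for these proteins. CAMTA1 is most abundant in brain and its variants have been linked to memory performance and ataxia in humans, whereas CAMTA2 was described in the mouse heart as a coactivator for the factor Nkx2-5 that is held back by class II histone deacetylases.

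The mRNAs of both genes were first set side by side, since likeness between them bears on how well reads and hairpins tell the genes apart. Between all annotated GENCODE transcripts of both genes, 13 for Camta1 and 9 for Camta2, the longest stretch of identical sequence was 20 bases. There were 2 such stretches, and 0 stretches of 21 bases were shared. The longest coding transcripts, 8423 bases for Camta1 and 4495 bases for Camta2, were then compared window by window. The best-matching window of 60 coding bases lies within the part that encodes the CG-1 domain, at bases 481 to 540 of the Camta1 coding sequence and 397 to 456 of that of Camta2, counted from the A of the start codon. It is shown because it is the region of closest likeness, with 54 of 60 bases (90.0%) identical. Capitals mark identical bases, and lower case marks the bases that differ.
Camta1: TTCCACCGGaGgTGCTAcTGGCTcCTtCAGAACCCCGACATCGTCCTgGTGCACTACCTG
Camta2: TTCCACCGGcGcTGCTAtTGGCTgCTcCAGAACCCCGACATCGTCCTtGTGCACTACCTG
One of the 2 shared stretches of 20 bases falls in that window, CAGAACCCCGACATCGTCCT. The other, also coding in both genes, is CCTCTGATGTGGGCCTGTGC. In the annotation the exons of neither gene overlap those of another gene. Where on the Camta1 mRNA the hairpins bind is not analysed here.

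Camta1 mRNA stood at 49.8% of its control level with shRNA A and at 49.1% with shRNA B, and the libraries of either hairpin were spread more widely than the controls. Levels are given in CPM, a gene's counts relative to library size, with library sizes brought to a common scale by TMM, the trimmed mean of M-values. Camta1 had 230, 174 and 254 CPM in the libraries with shRNA A 1, 2 and 3, from 7213, 5403 and 7765 counts. It had 239, 145 and 266 CPM in the libraries with shRNA B 1, 2 and 3, from 9226, 4626 and 8273 counts. Its level was 427, 455 and 442 CPM in control libraries 1, 2 and 3, from 12580, 14295 and 14023 counts. None of the 6 knock-down libraries reached the lowest control. Of 16438 genes, 5.65% had every shRNA A library below every control and 8.88% every shRNA B library, and 4.50% had all 6 on one side of the controls, above or below. The libraries with the least Camta1 were shRNA B 2 and then shRNA A 2, and the remaining 4 knock-down libraries lay close to each other.

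Set against the control mean, Camta1 remained at 52.2%, 39.4% and 57.6% with shRNA A, a mean of 49.8 ± 9.36% (SD, n = 3). With shRNA B it remained at 54.1%, 33.0% and 60.4%, a mean of 49.1 ± 14.3% (SD, n = 3). These shares kept their order when levels were divided by the summed level of 15 neuron markers. They were then 54.2%, 42.4% and 61.1% in shRNA A libraries and 57.2%, 36.4% and 61.9% in shRNA B libraries. The 95% Poisson interval of the lowest level, that of shRNA B 2, was 141 to 150 CPM, which covers counting error only.

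**Figure D1:**
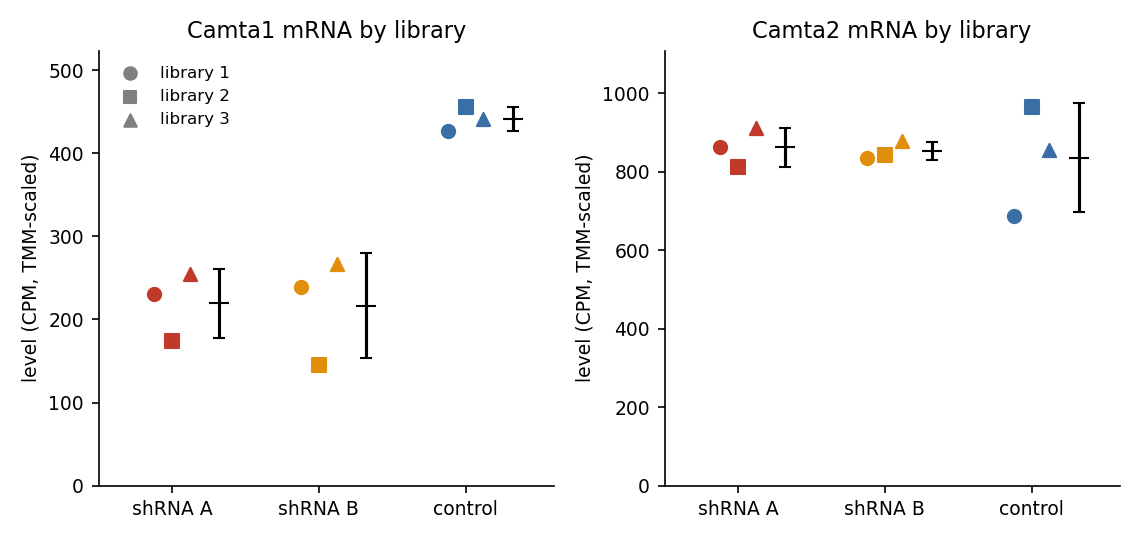
Levels of Camta1 (left) and Camta2 (right) mRNA in CPM after TMM scaling, in the libraries with shRNA A, with shRNA B and with control shRNA. Each symbol is 1 library, its shape gives the library number, and the bar beside each group is the mean ± SD of 3 libraries. Camta1 lies between 145 and 266 CPM in the knock-down libraries and between 427 and 455 CPM in controls, while the Camta2 groups overlap.

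The observed spread of Camta1 itself differed between the groups, though it rests on 3 libraries in each and the difference was not tested. Its coefficient of variation was 18.8% with shRNA A and 29.2% with shRNA B, against 3.21% in controls. Among the 14520 genes that averaged 1 CPM or more, 8.60% varied more than Camta1 with shRNA A and 3.34% varied more with shRNA B, against 84.2% in controls. Camta1 was thus among the more variable genes of the knock-down groups and among the steadier genes of the control group. Camta2 showed the other order, with coefficients of 5.75% for shRNA A and 2.74% for shRNA B, against 16.7% in controls.

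The fitted Camta1 differences of both hairpins lay close together, and whether it passed a test across all genes depended on the test. In edgeR's quasi-likelihood test on 16438 genes, adjusted by Benjamini-Hochberg at a threshold of 0.05, the log2 fold change was -1.01 for shRNA A (95% interval -1.50 to -0.51, adjusted p = 0.388). For shRNA B it was -1.02 (-1.52 to -0.53, adjusted p = 0.0776), and for the mean of both hairpins -1.02 (-1.43 to -0.61, adjusted p = 0.107). Camta1 was therefore not called in edgeR, in comparisons where 0.0243% of genes were called for shRNA A, 1.02% for shRNA B and 0.0973% for the mean of both. As shares of the control level, the 95% intervals ran from 35.4% to 70.0% with shRNA A and from 34.9% to 69.1% with shRNA B. By size of the decrease Camta1 ranked 84th of 16438 genes for shRNA A and 50th for shRNA B. The unadjusted edgeR p of Camta1 was 0.00135 for shRNA A and 0.00121 for shRNA B.

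The variance estimate for Camta1 was wider than for most genes. Its gene-wise biological coefficient of variation was 18.4%, against a median of 8.71% over all genes, and 9.78% of genes had a higher one. The robust fit gave Camta1 2.55 prior degrees of freedom, against a median of 6.31, so less was borrowed for it from other genes. DESeq2 called Camta1 for each hairpin, with adjusted p = 0.0152 for shRNA A and 0.00174 for shRNA B. Without library shRNA B 2, edgeR called it as well, at adjusted p = 0.0150 for shRNA A and 0.0367 for shRNA B, with log2 fold changes of -1.01 and -0.81. The authors' deposited table lists Camta1 at log2 fold changes of -1.01 and -1.03 for shRNA A and shRNA B, with a standard error of 0.238 each, and gives 1 adjusted p, 0.000358, for both hairpins at once.

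Set directly against shRNA A, shRNA B gave a Camta1 log2 fold change of -0.02, with a 95% interval of -0.51 to 0.47. As a percentage change with shRNA B relative to shRNA A, that interval runs from -29.6% to 38.6%. Any difference within it, or none, fits the data. The direction turned when library 1 or 3 of shRNA A or library 2 of shRNA B was left out. In this comparison edgeR called 0 genes (0.00% of genes), with 1536 at an unadjusted p below 0.05, and DESeq2 called 123.

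Camta2, the paralog, was examined for a change that could accompany the loss of Camta1. Its level was 864, 812 and 912 CPM in the libraries with shRNA A and 835, 844 and 879 CPM in those with shRNA B, against 688, 964 and 856 CPM in control libraries 1, 2 and 3. All 6 knock-down libraries lay inside the range of the controls. The log2 fold change was 0.05 for shRNA A (95% interval -0.18 to 0.27, edgeR adjusted p = 0.952) and 0.03 for shRNA B (-0.20 to 0.26, adjusted p = 0.946). Without control library 1, the lowest, these were -0.077 and -0.095, so the data give no direction. For the mean of both hairpins the interval, as a percentage change from controls, ran from -10.5% to 17.6%. A change of Camta2 larger than this was outside the interval, while any change within it, or none, fits the data. The exact two-sided permutation test on CPM gave p = 0.702 for 6 knock-down libraries against 3 controls.

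**Figure D2:**
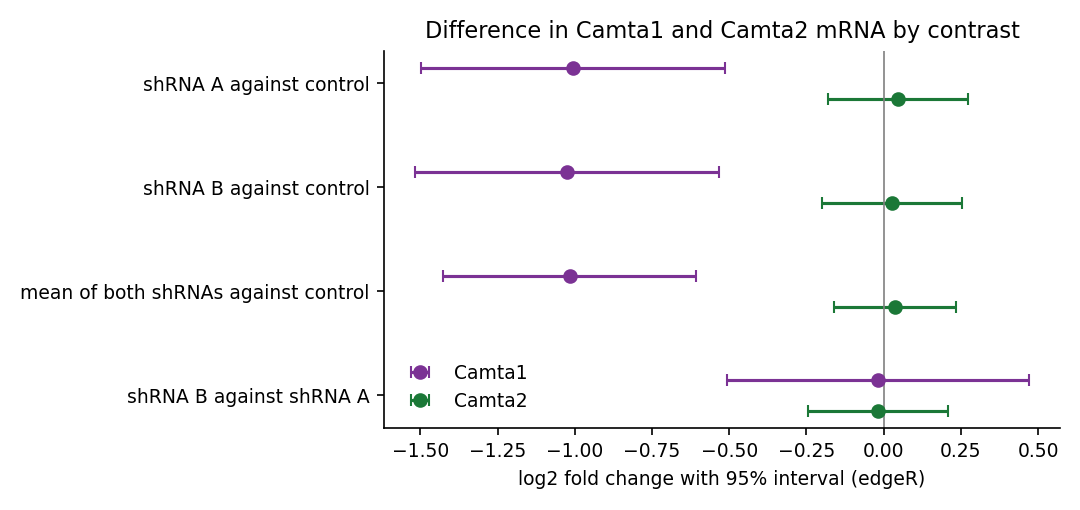
Log2 fold changes of Camta1 and Camta2 with 95% intervals from edgeR for shRNA A against control, shRNA B against control, the mean of both hairpins against control and shRNA B against shRNA A. The Camta1 intervals against control lie below 0 and those of Camta2 span 0, as do both intervals of shRNA B against shRNA A.

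A ratio of the genes within a library needs no scaling between libraries. Camta1 counts per Camta2 count were 0.267, 0.214 and 0.279 in shRNA A libraries and 0.286, 0.172 and 0.303 in shRNA B libraries, against 0.620, 0.472 and 0.516 in controls. Every knock-down library lay below every control. The mean log2 ratio was -2.01 ± 0.31 over the 6 knock-down libraries and -0.91 ± 0.20 over the 3 controls (SD), a difference of -1.10. Its exact two-sided permutation p was 0.0119, the smallest that 6 against 3 allows, and 0.0476 after adjustment over the 4 comparisons of this ratio. For shRNA A and shRNA B alone the differences were -1.08 and -1.11, each with an exact p of 0.1, the smallest that 3 against 3 allows.

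**Figure D3:**
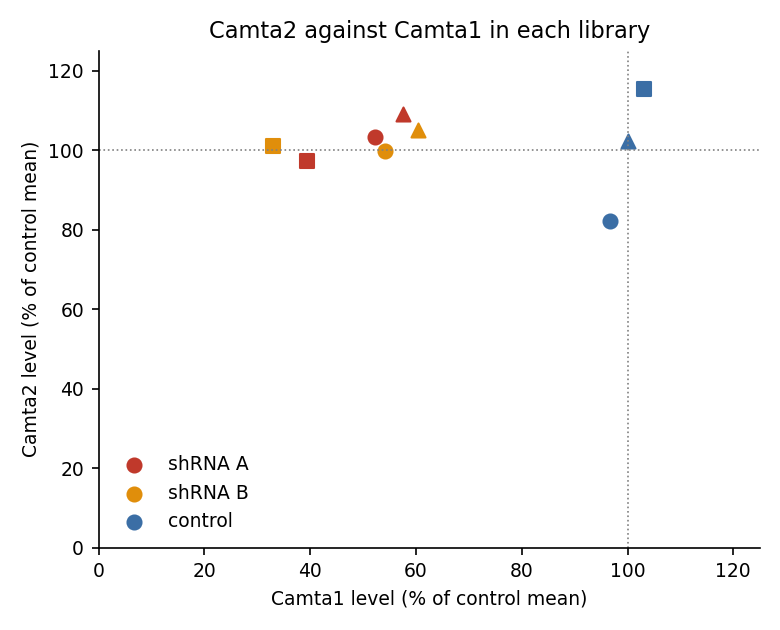
Camta2 level against Camta1 level in each of the 9 libraries, both as a percentage of the mean of the 3 controls, with dotted lines at 100%. Colours give the group and symbol shapes the library number. The knock-down libraries spread from 33.0% to 60.4% along the Camta1 axis while their Camta2 level stays between 97.2% and 109%.

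Camta2 was the more abundant transcript in every group, in CPM as well as per kilobase. Its mean was 862 CPM against 219 for Camta1 with shRNA A, 852 against 217 with shRNA B and 836 against 441 in controls. Per kilobase of merged exons, 14.57 kb for Camta1 and 5.207 kb for Camta2, the Camta2 level was 11.2 ± 1.64 times that of Camta1 with shRNA A and 11.8 ± 3.89 times with shRNA B, against 5.29 ± 0.72 times in controls (SD, n = 3). With the length of the longest coding transcript in place of merged exons these ratios were 7.50, 7.87 and 3.54, so the size of the excess depends on which length is used and the order of the groups does not. On the merged-exon scale, Camta1 made up 8.29 ± 1.04% of the summed Camta level with shRNA A and 8.28 ± 2.16% with shRNA B, against 16.0 ± 1.91% in controls. The summed level was 181 ± 12.3 and 179 ± 7.69 CPM per kilobase with shRNA A and shRNA B, against 191 ± 27.7 in controls, and its group ranges overlapped. Ranked by level per kilobase, 21.8% of 15627 genes lay above Camta1 with shRNA A and 21.9% with shRNA B, against 10.4% in controls. For Camta2 the corresponding shares were 1.10%, 1.10% and 1.21%.

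The knock-down libraries were also compared with one another, to see what else varied with the Camta1 level. Over these 6 libraries, Pearson's r between log2 levels of Camta1 and Camta2 was 0.63 (exact permutation p = 0.196, Spearman's rho 0.66, p = 0.175), a sign opposite to that of higher Camta2 in libraries with less Camta1, and it did not pass. Relations were computed for 7 measures, namely Camta2 and 6 list scores, each the mean log2 CPM of the list minus its control mean. The highest were with the astrocyte score (r = 0.88, exact permutation p = 0.0111, rho 0.89, p = 0.0333) and the neuron score (r = 0.84, p = 0.0264, rho 0.83, p = 0.0583). After adjustment over the 7 relations these had p = 0.0778 and 0.0924 for r and 0.204 for each rho, so neither passed. Without shRNA B 2 and shRNA A 2, the libraries farthest from the median Camta1 level, r was 0.46 for the astrocyte score, 0.70 for the neuron score and 0.57 for Camta2 over 4 libraries. With any 1 library left out, r ran from 0.67 to 0.95 for the astrocyte score and from 0.58 to 0.94 for the neuron score. The astrocyte score of shRNA B 2 was -0.19, against 0.00 to 0.14 in the other 5 libraries.

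Library shRNA B 2 held the least Camta1 and stood at the edge on other lists too. Its interferon response score was 2.86, the highest of the 9 libraries, and its p53 target score was 0.91, also the highest. Its neuron score of -0.19 was the lowest. Over the 6 knock-down libraries, r of Camta1 with the interferon score was -0.53 (exact permutation p = 0.296, rho -0.26, p = 0.658) and with the p53 score -0.63 (p = 0.165, rho -0.31, p = 0.564). Both were nearer 0 or turned sign without the 2 farthest libraries, at 0.22 and -0.12. The microglia and oligodendrocyte scores gave r of -0.07 (exact permutation p = 0.933, rho -0.09, p = 0.919) and 0.51 (p = 0.276, rho 0.43, p = 0.419), or 0.52 and 0.86 without those libraries. After adjustment over the 7 relations, these 4 scores and Camta2 had p between 0.343 and 0.933 for r. The part of these lists in the Camta1 levels was not tested.

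**Figure D4:**
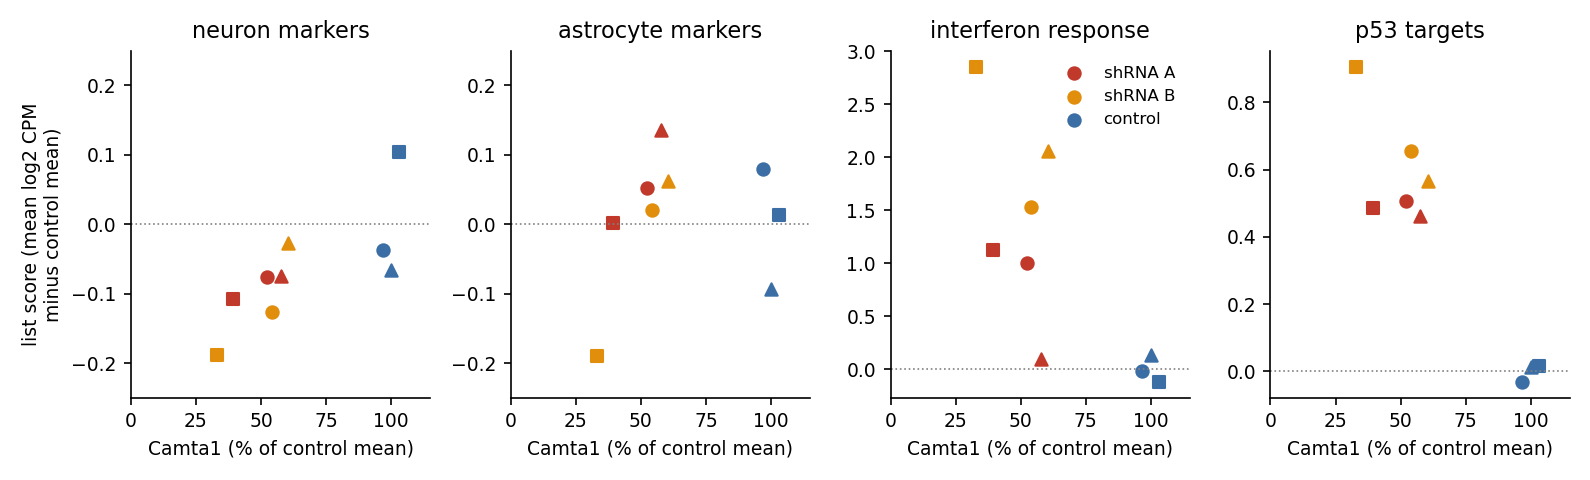
Scores of neuron markers, astrocyte markers, interferon response genes and p53 targets (mean log2 CPM minus the control mean, with a scale of its own for each response list) against Camta1 as a percentage of the control mean, in the libraries with shRNA A, shRNA B and control shRNA. Symbol shapes give the library number, as circle, square and triangle for 1, 2 and 3. Library shRNA B 2, at 33.0% Camta1, has the lowest neuron and astrocyte scores and the highest interferon and p53 scores.

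Lists of cell type markers and response genes were read beside these levels. Of 15 neuron markers edgeR called 0 for either hairpin, with 3 at an unadjusted p below 0.05 for shRNA A and 2 for shRNA B, and DESeq2 called 0 for each. Their log2 fold changes were below 0 for 12 of 15 with shRNA A and for 14 of 15 with shRNA B, with medians of -0.07 and -0.11 against 0.00 over all genes. All 12 markers of hippocampal subfields passed the filter on low counts. Their log2 fold changes ran from -0.44 to 0.66 for shRNA A and from -0.29 to 0.46 for shRNA B, and edgeR called 0 with each, while DESeq2 called 2 for shRNA A and 0 for shRNA B. They summed to 2248 to 2396 CPM with shRNA A and 2193 to 2376 CPM with shRNA B, against 2224 to 2530 CPM in controls. The summed neuron marker level was 9127 to 9468 CPM with shRNA A and 8892 to 9581 CPM with shRNA B, against 9291 to 10582 CPM in controls.

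Of 12 oligodendrocyte markers, 12 had a log2 fold change above 0 with shRNA A and 11 with shRNA B, with medians of 0.42 and 0.31, and edgeR and DESeq2 called 0 of them with either hairpin, with 0 at an unadjusted p below 0.05. They summed to 4452 to 6984 CPM with shRNA A and 3577 to 7298 CPM with shRNA B, against 3169 to 5159 CPM in controls, so the groups overlapped. The 12 astrocyte markers summed to 5844 to 6680 CPM with shRNA A and 4929 to 6258 CPM with shRNA B, against 5730 to 6498 CPM in controls. Their log2 fold changes were above 0 for 9 of 12 with shRNA A, but for only 2 of 12 with shRNA B. Medians were 0.06 and -0.04, and with shRNA B the values ran from -0.48 to 0.47. edgeR called 0 of these markers for shRNA A. For shRNA B it called 1, Aldh1l1, a folate enzyme gene named here after its values were seen, which rose by 0.47 on the log2 scale (SE 0.07, edgeR adjusted p = 0.0137). That count was 0 without control library 1 or 3 and 2 without shRNA B 1, and DESeq2 called 2.

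The edgeR counts of called genes on the response lists and on all marker lists stand against the same 0.0243% of all genes for shRNA A and 1.02% for shRNA B. The interferon list summed to 160 to 217 CPM with shRNA A and 278 to 540 CPM with shRNA B, against 135 to 145 CPM in controls. Of its 20 genes, edgeR called 0 for shRNA A, with 5 at an unadjusted p below 0.05 and 1 called by DESeq2. For shRNA B, edgeR called 13, all higher, DESeq2 called 20 and limma-voom 8. That edgeR count was 1 without control library 1 or 2, and 2 without control library 3. It was 7 without library 1 or 2 of shRNA A, 8 without shRNA B 3 and 11 without shRNA A 3. Without shRNA B 2 it was 12, and without shRNA B 1 it was 18. All 20 log2 fold changes were above 0 with each hairpin, with medians of 0.87 for shRNA A and 2.31 for shRNA B. For shRNA B against shRNA A, edgeR called 0 of the 20, with 19 at an unadjusted p below 0.05, and DESeq2 called 12.

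The p53 targets summed to 575 to 627 CPM with shRNA A and 613 to 687 CPM with shRNA B, against 520.5 to 537 CPM in controls. Of 15 targets edgeR called 1 for shRNA A, higher, while DESeq2 called 4 and limma-voom 0. The edgeR count was 0 without control library 1 or 3 or any library of shRNA A and 3 without shRNA B 2. With shRNA B edgeR called 5, all higher, or 3 without control library 2 or 3 and 4 without control library 1. DESeq2 and limma-voom called 5 each. Log2 fold changes of the targets were above 0 for 10 of 15 with shRNA A and 13 of 15 with shRNA B. The microglia markers summed to 616 to 700 CPM with shRNA A and 707 to 795 CPM with shRNA B, against 574 to 613 CPM in controls. Of 13 markers edgeR called 0 for shRNA A, with 4 at an unadjusted p below 0.05 and 0 called by DESeq2. With shRNA B edgeR called 5, all higher, DESeq2 6 and limma-voom 4. The edgeR count was 1 without control library 1 or 3, 2 without control library 2 and 3 without shRNA B 2. It was 4 without library 1 or 2 of shRNA A and 6 without shRNA B 1. Log2 fold changes were above 0 for 12 of the 13 with each hairpin, with medians of 0.19 and 0.53. The 10 meningeal and choroid plexus markers summed to 53.5 to 72.4 CPM with shRNA A and 52.4 to 61.8 CPM with shRNA B, against 80.8, 59.4 and 1066 CPM in control libraries 1, 2 and 3. All 10 had a log2 fold change below 0 with each hairpin. edgeR called 0 for shRNA A and 1 for shRNA B, Slc6a13, a transporter gene named here after its values were seen (adjusted p = 0.0376), and that count was 0 on leaving out any 1 library other than shRNA B 1. Control library 3 thus stood apart on this list, and its Camta1 level lay between those of the other controls.

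Genes of the calcium and calmodulin pathway around the CAMTA proteins gave no edgeR call. The lists cover calmodulins and their neuronal buffers, CaM kinases, partners and regulators of CAMTA2, targets reported for CAMTA proteins, and other calcium-responsive transcription regulators. Of their 46 genes 44 were tested, and edgeR called 0 with either hairpin, against the 0.0243% and 1.02% of all genes given above. At an unadjusted p below 0.05 there were 3 for shRNA A and 4 for shRNA B. DESeq2 called 0 for shRNA A and 2 for shRNA B, and limma-voom 0 for each. The median log2 fold change of the 44 was -0.02 for shRNA A and -0.02 for shRNA B, against 0.00 over all genes in each comparison.

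Calm2, which encodes calmodulin, averaged 994 ± 94.5 CPM with shRNA A and 935 ± 54.0 CPM with shRNA B, against 1026 ± 42.1 CPM in controls (SD, n = 3). Calm3, which encodes the same protein, averaged 965 ± 34.6 and 890.0 ± 51.6 CPM, against 987 ± 102 CPM. Of the buffers, which bind calmodulin in its calcium-free form, 3 of 4 were tested, because Pcp4 was not analysed here. Gap43, a growth cone protein of this kind, averaged 107 ± 5.46 CPM with shRNA A and 88.9 ± 16.5 CPM with shRNA B, against 135 ± 33.7 CPM in controls. Its log2 fold change for shRNA B was -0.60 (SE 0.18, edgeR adjusted p = 0.198), the furthest from 0 among the 44 genes, and DESeq2 called it at adjusted p = 0.00987. Without control library 1 the edgeR value was -0.40. Nrgn, the postsynaptic buffer neurogranin, averaged 2067 ± 169 and 2085 ± 160 CPM, against 1898 ± 348 CPM in controls.

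All 10 CaM kinase genes were tested and edgeR called 0, with 1 at an unadjusted p below 0.05 for each hairpin and 0 called by DESeq2. Camk2a, the main kinase subunit of excitatory hippocampal synapses, averaged 8381 ± 460 CPM with shRNA A and 8366 ± 154 CPM with shRNA B, against 8118 ± 558 CPM in controls. Camk4, a nuclear kinase that acts on CREB, averaged 51.5 ± 4.03 and 45.4 ± 3.88 CPM, against 49.8 ± 6.59 CPM in controls.

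Of the 9 genes listed around CAMTA2, 8 were tested, as Nkx2-5, the cardiac partner factor, had 0 counts in all 9 libraries. Hdac5, a class II histone deacetylase reported to hold back CAMTA2, averaged 238 ± 19.6 CPM with shRNA A and 232 ± 11.3 CPM with shRNA B, against 223 ± 20.0 CPM in controls. Hdac9, of the same class, averaged 30.9 ± 4.74 and 25.7 ± 1.90 CPM, against 33.7 ± 1.46 CPM in controls. Its log2 fold change for shRNA B was -0.39 (SE 0.10, edgeR adjusted p = 0.114), and DESeq2 called it at adjusted p = 0.0347. Prkce, a protein kinase C gene whose product acts in the pathway that lifts that block, averaged 554 ± 11.2 and 585 ± 44.4 CPM, against 602 ± 51.6 CPM.

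Neither of the targets reported for CAMTA proteins elsewhere was called by edgeR or by DESeq2. Nppa, the atrial natriuretic peptide gene switched on by CAMTA2 in heart, passed the filter on low counts but had a low level. It averaged 0.603 ± 0.0528 CPM with shRNA A and 0.534 ± 0.0978 CPM with shRNA B, against 0.484 ± 0.0996 CPM in controls. Fbxl4, an F-box gene whose fly counterpart is a reported target of the fly CAMTA, averaged 12.9 ± 0.329 and 12.5 ± 0.767 CPM, against 12.6 ± 0.0932 CPM.

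Among 18 other transcription regulators that respond to calcium, edgeR called 0, with 2 at an unadjusted p below 0.05 for shRNA A and 1 for shRNA B, and DESeq2 called 0. Srf, which binds serum response elements of immediate early genes, averaged 95.6 ± 6.52 CPM with shRNA A and 94.97 ± 4.26 CPM with shRNA B, against 80.7 ± 8.19 CPM in controls. Its log2 fold changes were 0.24 and 0.23 (SE 0.08 each), with edgeR adjusted p of 0.617 and 0.248. Mef2a, a factor controlled by class II histone deacetylases, averaged 175 ± 13.7 and 192 ± 5.69 CPM, against 202 ± 6.50 CPM. Creb1, the cyclic AMP and calcium response factor, averaged 63.8 ± 7.07 and 61.2 ± 6.76 CPM, against 63.8 ± 5.12 CPM in controls.

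The chromosomal neighbours of the Camta genes gave no edgeR call. For each Camta gene the 3 nearest protein-coding genes on either side were taken, and for Camta1 also the genes that overlap its annotated body, which made 17 genes, of which 15 were tested. edgeR called 0 of 9 around Camta1 and 0 of 6 around Camta2 with either hairpin, against 0.0243% of all genes for shRNA A and 1.02% for shRNA B, so counts of 0 lie near the background. At an unadjusted p below 0.05 there were 1 and 1 for shRNA A and 2 and 0 for shRNA B. DESeq2 called only Per3, for shRNA B. Around Camta1 the log2 fold changes ran from -0.09 to 0.21 for shRNA A and from -0.11 to 0.46 for shRNA B, all nearer 0 than those of Camta1. Park7, the nearest downstream gene and an oxidative stress protein, averaged 136 ± 6.63 CPM with shRNA A and 133 ± 1.81 CPM with shRNA B, against 138 ± 3.48 CPM in controls. Dnajc11, the nearest upstream gene and a mitochondrial chaperone, averaged 78.1 ± 2.28 and 78.8 ± 3.85 CPM, against 78.6 ± 0.646 CPM. Per3, a circadian clock gene, averaged 54.5 ± 7.29 CPM with shRNA A and 72.3 ± 6.38 CPM with shRNA B, against 52.6 ± 6.88 CPM in controls. Its log2 fold change for shRNA B was 0.46 (SE 0.12), with adjusted p = 0.108 in edgeR and 0.0113 in DESeq2. Vamp3, a vesicle fusion protein gene, had log2 fold changes of 0.20 and 0.23 (SE 0.08 each, edgeR adjusted p 0.702 and 0.232). Around Camta2 they ran from 0.06 to 0.37 for shRNA A and from -0.01 to 0.32 for shRNA B, with the highest value at Inca1 in both cases, though without control library 1 Inca1 stood at 0.24 and 0.20. Pfn1, which encodes the actin-binding protein profilin, averaged 249 ± 13.9 and 248 ± 11.04 CPM, against 215 ± 36.7 CPM in controls.

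**Figure D5:**
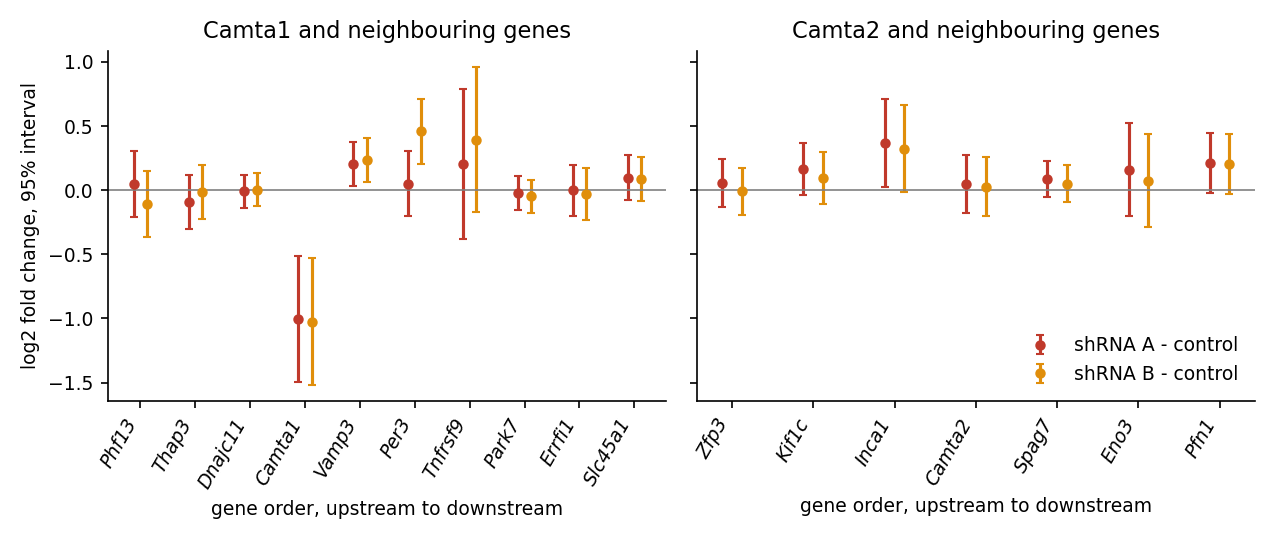
Log2 fold changes with 95% intervals from edgeR for Camta1 (left) and Camta2 (right) and the tested genes beside them, for shRNA A and shRNA B against control. Genes stand in order of direction of transcription of the Camta gene, without scale, and Vamp3, Per3 and Tnfrsf9 overlap the annotated body of Camta1. Camta1 is the only gene plotted whose intervals lie below 0 for both hairpins.

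To find which genes had a profile most like that of Camta1, the root mean square difference of log2 levels over the 9 libraries was taken, each gene centred on its own mean, among 14519 other genes that averaged 1 CPM or more. A flat profile would differ from Camta1 by 0.56, and 5544 genes came closer than that. The 5 closest were Stra6 at 0.27, Nnat at 0.31, ENSMUSG00000063249 at 0.32, Zfp185 at 0.33 and Col15a1 at 0.33. Stra6, a receptor for retinol-binding protein, averaged 9.36 ± 1.61 CPM with shRNA A and 9.03 ± 2.18 CPM with shRNA B, against 13.4 ± 1.02 CPM in controls. Nnat, the imprinted gene neuronatin, averaged 122 ± 22.5 and 114 ± 29.0 CPM, against 209 ± 75.4 CPM in controls. These 5 were picked by likeness to Camta1 over the same libraries, so levels below control follow from the choice. Of these 5 only Col15a1, a basement membrane collagen gene, was called by edgeR. It was called for shRNA B and for the mean of both hairpins (adjusted p = 0.0214), where 1.02% and 0.0973% of all genes were called. With shRNA B it was at 4.34 ± 0.422 CPM against 8.88 ± 1.51 CPM in controls (log2 fold change -1.03, SE 0.14, adjusted p = 0.0111). Without control library 1 its adjusted p was 0.0584. For shRNA A its log2 fold change was -0.83, with adjusted p = 0.178 in edgeR, 0.0378 without the low-count filter and 0.00220 in DESeq2. For shRNA B, DESeq2 also called Stra6 (adjusted p = 0.0488) and Zfp185 (adjusted p = 0.0121). Zfp185 had adjusted p = 0.0680 in edgeR, or 0.0306 without the low-count filter and 0.0115 without shRNA B 1. For Camta2 a flat profile differed by 0.13, and the closest genes were Mars2 at 0.04, Gm4760, Ap5s1, Arhgap44 and Gm16515. Mars2, the mitochondrial methionyl-tRNA synthetase gene, averaged 10.47 ± 0.793 and 10.47 ± 0.0261 CPM with shRNA A and shRNA B, against 10.05 ± 1.49 CPM in controls. Its wider spread among controls, shared with Camta2, likewise follows from the choice by likeness.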

How the data were processed

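PolyA-selected RNA of 9 mouse hippocampus samples was sequenced without strand information, per the labels' protocols. The values deposited by the authors are raw read counts of Ensembl genes, as the file headers say. Beside these counts, the authors deposited the average signal of each gene after their normalization, log2 fold changes with standard errors, a likelihood ratio score, and a p-value and adjusted p-value. Build mm9 and the tools HTSeq 0.6.1, TopHat 1.4.1, DESeq2 1.4.5, SAMtools 0.1.19 and R 3.1.1 stand in the submitters' processing notes, and no source used here names the gene annotation. Library totals were 29123744 to 38189288 counts.

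Counts were tested with edgeR 4.0.16 in R 4.3.3 after filterByExpr and TMM scaling, on all 9 libraries in 1 model, which left 16438 genes. DESeq2 1.42.0 and limma 3.58.1 served as alternatives. All tests are two-sided, and every 95% interval of a log2 fold change comes from the quasi-likelihood t distribution. Poisson intervals cover counting error only. The test was tried on simulated counts first. Permutations were enumerated in full with NumPy 2.4.6 and SciPy 1.17.1, also for correlations. Likeness of profiles used log2(CPM + 0.1). Gene lengths, neighbours and coding sequences came from GENCODE M21 (GRCm38), another build than that of the counts, so no coordinates are given. Neighbouring genes were the 3 nearest protein-coding ones on either side and those overlapping the gene body, and lists were read for all their members. A symbol held by more than 1 identifier, as Hdac4, was read at the one with most counts. One listed gene is not reported here.

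The genes, lists and rules were chosen with earlier results of these data known. Counts of list members and neighbours with a library left out were added after seeing the data. Same-numbered libraries of different groups deviated from their group means with correlations of -0.13 to 0.27, so the numbers were not taken to pair samples. No pair of libraries within a group matched within counting noise (chi-square per degree of freedom 7.9 to 20.9). Whether libraries are separate animals rests on the series design.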

Additional observations from a re-analysis of the deposited data

How the results depend on the processing

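The Camta1 log2 fold changes against control stayed negative under every alternative run, while the call depended on the setting. For shRNA A Camta1 passed 0.05 with DESeq2 (-1.01, adjusted p = 0.0152) and with only the groups compared in the fit (-1.01, adjusted p = 0.0128). For shRNA B it passed with DESeq2 (-1.03, adjusted p = 0.00174), limma-voom (-1.07, adjusted p = 0.0408) and robust estimation off (-1.02, adjusted p = 0.0310). For the mean of both hairpins it passed with DESeq2 (-1.02, adjusted p = 0.000365) and robust estimation off (-1.02, adjusted p = 0.0439). Leaving out 1 library in turn, the values ran from -1.13 to -0.86 for shRNA A, from -1.20 to -0.81 for shRNA B and from -1.10 to -0.91 for the mean, and only without shRNA B 2 were they called, for the mean at adjusted p = 0.00647. The adjusted p ran from 0.0128 to 0.946 for shRNA A, from 0.00174 to 0.239 for shRNA B and from 0.000365 to 0.427 for the mean over all alternatives.

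Camta2 was not called under any alternative. Leaving out 1 library in turn, its log2 fold changes ran from -0.077 to 0.16 for shRNA A, from -0.095 to 0.14 for shRNA B and from -0.086 to 0.15 for the mean, with the negative ones without control library 1. For shRNA B against shRNA A they ran from -0.19 to 0.20 for Camta1, from -0.059 to 0.024 for Camta2 and from -0.18 to 0.23 for the log2 ratio of the genes, and Camta2 was 0.0020 with library totals. Of the relations, r without 1 library ran from -0.51 to 0.78 for the microglia score, -0.80 to 0.10 for interferon, -0.90 to 0.30 for p53 targets and -0.25 to 0.89 for oligodendrocytes. The cause was not tested.

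The number of genes called for shRNA A was 43 with DESeq2, 0 with limma-voom, 9 without the filter, 2 with robust estimation off, 18 with only the groups compared and 0 to 10 leaving out 1 library. For shRNA B it was 386 with DESeq2, 95 with limma-voom, 42 with only the groups compared and 13 to 217 leaving out 1 library. For the mean it was 243 with DESeq2, 67 without the filter and 1 to 52 leaving out 1 library. For shRNA B against shRNA A it was 123 with DESeq2, 21 without the filter and 0 to 110 leaving out 1 library.

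With the replicate number as a block, Camta1 had -1.04 for shRNA A (adjusted p = 0.237), -1.07 for shRNA B (adjusted p = 0.0347) and -1.06 for the mean (adjusted p = 0.0400), and the genes called were 5, 148, 31 and 1 in the 4 contrasts. The block changed no other call reported here that was refitted with it. Same-numbered libraries of shRNA A and shRNA B had correlations of 0.11, 0.09 and 0.27. Each shRNA A library correlated best with the same-numbered shRNA B library, whereas shRNA B 2 correlated best with shRNA A 1, at 0.10. Knock-down libraries and same-numbered controls had correlations of -0.13 to -0.01.

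With 3 libraries a group, a Camta2 change within its intervals, or a difference between the hairpins within theirs, still fits the data. Each gene had at least 4626 counts in every library.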
